A study of Mus musculus with 6 samples.

Results

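Integrins are the receptors by which cells hold on to the extracellular matrix. The 10 integrin subunit genes described here were chosen by name, as subunits of embryonic mesenchyme: Itga1, Itga3, Itga5, Itga6, Itga8, Itga9 and Itgav for alpha subunits, and Itgb1, Itgb3 and Itgb5 for beta subunits. They are 10 of the 19792 genes tested and have 14 of the 39429 probes on the array. They and the gene lists below were chosen with earlier results of these data known. The RNA came from trunks of day 9.5 mouse embryos, meaning the body between otic vesicle and somite 15 with the forelimbs attached. The 2 groups were wild type and Arid3b-null. Each had 3 arrays, and each array held RNA pooled from 4 embryos, so the spread given below is between pools and not between embryos. The labels give no further allele, strain or treatment for either group. Arid3b encodes a DNA-binding protein of the ARID family. The question the comparison addresses is which transcripts differ in the trunk when it is missing.

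An integrin is a pair of 1 alpha and 1 beta chain, and the pair decides what it binds. Beta1 joins most alpha chains. Alpha3 and alpha6 make laminin receptors with it, alpha1 a receptor for collagens, alpha5 the main fibronectin receptor, alpha8 the receptor for nephronectin in the embryonic kidney, and alpha9 a receptor for tenascin-C and related ligands. Alphav joins beta1, beta3, beta5 and others and binds ligands that carry the tripeptide RGD, such as fibronectin and vitronectin. In early embryos these receptors assemble fibronectin around the somites and anchor epithelia to basement membranes.

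Signals are log2 values relative to the 75th percentile of the same array, so 0 is the level of that percentile, and a change is Arid3b-null minus wild type. A gene is said to have risen or fallen if its adjusted p was under 0.05 in limma, a linear model fitted over all 19792 genes, with Benjamini-Hochberg adjustment over all of them. Levels of different probes are not compared with each other, since probes differ in brightness for the same RNA amount. Depth here is the number of arrays and the signal over background. The 75th percentile lay between 611 and 844 signal units, highest in wild type replicate 1, and 60.7% to 68.1% of probes per array were well above background. Arid3b itself read 2.18, 2.57 and 1.97 on the wild-type arrays and 0.54, 0.65 and 0.46 on the others, a fall by 1.69 on the log2 scale (limma adjusted p = 0.00154). Those readings are of its brightest probe, and with the mean of its probes the log2 change was -2.27. Whether its probes lie in the part that the allele lacks is not known here. Arrays of the same replicate number shared a slide. Wild type had the first position on each of the 3 slides and Arid3b-null the second, so position and genotype cannot be told apart.

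In the Arid3b-null trunks 5 of the 10 integrin genes rose and 0 fell. Itga8 doubled (2.04-fold), Itga3 rose 2.09-fold and Itgb3 1.73-fold, while Itga9 and Itgb1 each rose 1.32-fold. The other 5, Itga1, Itga5, Itga6, Itgb5 and Itgav, did not pass the test. Over all tested genes 26.5% were called, 13.6% as higher and 12.9% as lower. At an unadjusted limma p under 0.05, 9 members were higher and 0 lower, beside 20.0% and 20.1% of all tested genes, shares that bear on each unadjusted count given below. The median log2 change of the 10 genes was 0.45, beside -0.04 over all tested genes. Since the members were chosen with earlier results known, such contrasts with all genes are a description only. The changes of 9 members lay above 0. The median member change was 0.41, 0.58 and 0.40 on slides 1 to 3, beside 0.03, -0.03 and -0.10 over all tested genes. Arrays of the groups did not overlap for 8 members, as for 46.2% of all tested genes. All 10 genes passed the filter on dim probes in both groups, since the probe used for each was well above background on all 6 arrays, and no probe of a member was saturated.

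Itga8 was the one member whose call stood in each of the 13 other ways of processing that were run, and Itga3 and Itgb3 stood in 10 and 11 of them. The Itgb3 count includes the mean of its probes, which takes in a probe that was well above background on no wild-type array. Without wild type replicate 1, Itga8 alone passed (adjusted p = 0.0170), with Itga3 at 0.0515 and Itgb3 at 0.0568. Itga9 and Itgb1 did not pass whichever array was left out. With the slide as a block they did not pass either (limma adjusted p = 0.0595 and 0.0570), whereas Itgb5 did (adjusted p = 0.0494). Leaving out Arid3b-null replicate 2 gave 3 called members, and leaving out replicate 3 gave 2.

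**Figure D1:**
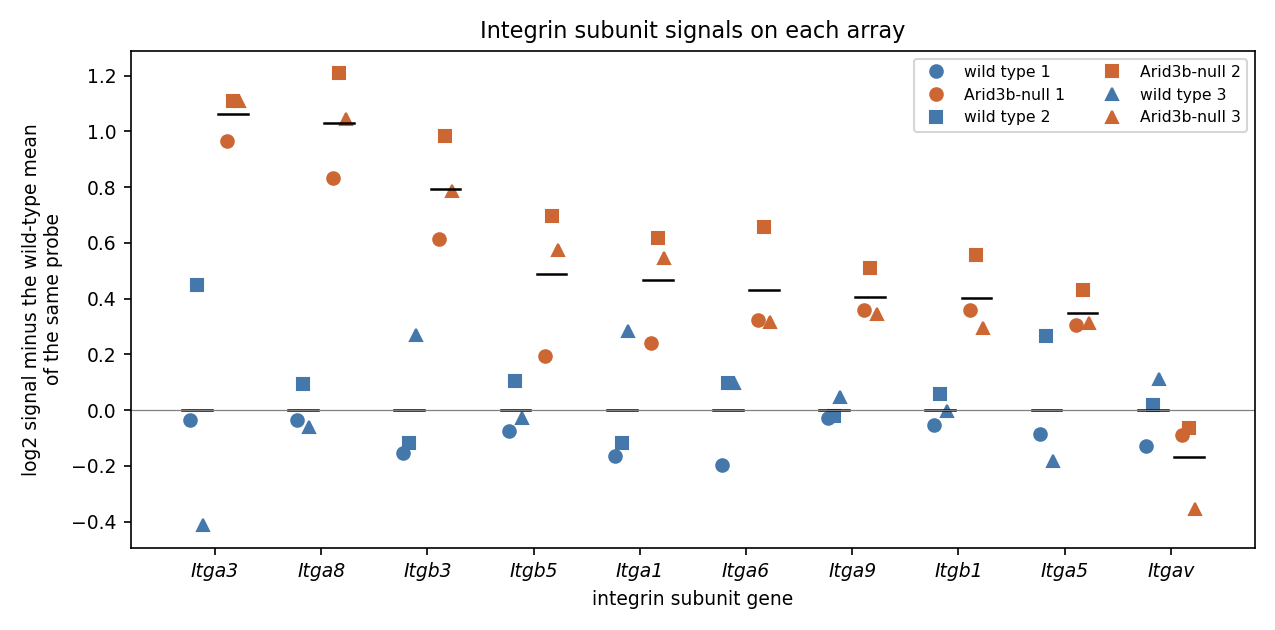
Log2 signal of each integrin gene on each array, minus the wild-type mean of the same probe, for 3 wild-type (blue) and 3 Arid3b-null (orange) arrays. Marker shapes are replicate numbers, which are also slides, and black lines are group means. The groups are apart for 8 of the 10 genes, and overlap for Itga1 and Itgav.

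RefSeq start-site sequences of assembly GRCm38.p6 were at hand for 8 of the 10 genes, with 9 starts in all, and not for Itga6 and Itgb3. The 250 bases before the start are shown, 5′ to 3′ on the gene's strand, for 3 members that rose and for Itgav and Itgb5, which did not, so that both kinds can be read side by side. Itga8 lies on the minus strand at chr2:12301945-12302194, Itga3 on the minus strand at chr11:95076715-95076964, Itgb1 on the plus strand at chr8:128685404-128685653, Itgav on the plus strand at chr2:83724147-83724396 and Itgb5 on the plus strand at chr16:33829415-33829664. Capitals mark a GC box (GGGCGG, which Sp factors bind), the core of the hypoxia response element (ACGTG) and an AT-rich string (ATTAA), each searched on both strands; no 2 motifs overlapped in these windows.
Itga8: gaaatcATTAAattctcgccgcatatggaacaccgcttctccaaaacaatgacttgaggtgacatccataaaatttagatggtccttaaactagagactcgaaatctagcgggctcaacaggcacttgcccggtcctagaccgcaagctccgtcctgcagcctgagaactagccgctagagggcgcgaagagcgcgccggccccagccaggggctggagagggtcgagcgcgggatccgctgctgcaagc
Itga3: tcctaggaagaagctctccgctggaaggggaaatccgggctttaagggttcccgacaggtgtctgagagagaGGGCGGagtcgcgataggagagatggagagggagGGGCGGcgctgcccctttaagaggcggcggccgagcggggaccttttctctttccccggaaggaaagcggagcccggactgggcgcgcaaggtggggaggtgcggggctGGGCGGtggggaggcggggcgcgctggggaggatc
Itgb1: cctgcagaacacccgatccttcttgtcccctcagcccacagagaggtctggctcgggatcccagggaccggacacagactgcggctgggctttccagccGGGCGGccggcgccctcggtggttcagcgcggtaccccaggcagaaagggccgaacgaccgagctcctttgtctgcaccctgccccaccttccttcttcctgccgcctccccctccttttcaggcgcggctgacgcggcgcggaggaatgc
Itgav: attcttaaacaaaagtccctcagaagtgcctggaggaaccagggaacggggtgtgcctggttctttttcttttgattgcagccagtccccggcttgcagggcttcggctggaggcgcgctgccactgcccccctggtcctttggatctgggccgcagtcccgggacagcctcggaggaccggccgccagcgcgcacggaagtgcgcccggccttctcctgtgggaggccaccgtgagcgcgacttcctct
Itgb5: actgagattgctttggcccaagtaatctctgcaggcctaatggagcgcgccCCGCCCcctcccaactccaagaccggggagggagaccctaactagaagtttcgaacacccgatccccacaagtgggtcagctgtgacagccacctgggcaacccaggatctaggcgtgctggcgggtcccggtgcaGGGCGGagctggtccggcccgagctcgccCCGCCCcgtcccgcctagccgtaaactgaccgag
Itga8 holds 1 ATTAA and Itga3 holds 3 GC boxes in these windows. Itgb1 has 1 GC box, and the Itgav window has none of the motifs. Itgb5, which did not pass the test, holds 3 GC boxes, and Itga5, which did not pass either, holds 2. A second Itga3 start, not shown, has 1. The GC box thus stood before members that rose and before members that did not pass. Over the 9 member starts, 5 held a GC box, 1 held ACGTG and 1 held ATTAA. Of 32851 such windows of all genes, 32.7% held a GC box, 16.6% ACGTG and 24.9% ATTAA. Both Itga3 starts are among the 5 with a GC box. Member windows ran from 50.8% to 68.0% GC, beside a median of 52.4% over all windows, and the counts take no account of this. A match is a run of letters, and binding was not measured.

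Among the laminin receptors, Itga3 encodes alpha3, a chain of epithelial cells in particular. On its single probe wild type replicates 1 to 3 read -1.44, -0.96 and -1.82, and the Arid3b-null arrays -0.44, -0.29 and -0.29. The wild-type arrays were all lower and far more spread. The change was 1.06 ± 0.22 (SE; limma adjusted p = 0.0147; 95% interval 0.55 to 1.58). Leaving out wild type replicate 1, as above, or Arid3b-null replicate 3 (adjusted p = 0.0514) ended the call.

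Itga6 encodes alpha6, the other laminin-binding chain here. Its wild-type arrays read 2.78, 3.07 and 3.07 and its Arid3b-null arrays 3.30, 3.63 and 3.29. These do not overlap, but the change of 0.43 ± 0.15 (SE) did not pass (limma adjusted p = 0.0727). It passed with quantile normalization (adjusted p = 0.0406) and with the normexp background correction (0.0192).

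Of the receptors for fibronectin and other RGD proteins, 1 of 4 rose. Itgb3, which encodes the beta3 chain shared by the vitronectin receptor and the platelet fibrinogen receptor, read -0.79, -0.76 and -0.37 in wild type and -0.03, 0.34 and 0.15 in Arid3b-null. All 3 Arid3b-null arrays were above all wild-type arrays. The change was 0.79 ± 0.16 (SE; limma adjusted p = 0.0148; 95% interval 0.41 to 1.18). A second Itgb3 probe had only a bound in wild type, where no array raised it well above background. It passed the filter on dim probes through the Arid3b-null arrays alone, so it is not a second test of Itgb3. Its Arid3b-null mean was -5.21, which is 1.89-fold above this wild-type bound. For this bound each wild-type array took either its own reading or the dimmest reading that counted as well above background there, whichever was larger, and these averaged -6.13. That dimmest reading is of another probe, so the 1.89 is neither a measured nor a least fold for Itgb3.

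Itgb5 encodes beta5, which pairs with alphav alone. Its wild-type arrays read 2.51, 2.69 and 2.56, and the Arid3b-null arrays 2.78, 3.28 and 3.16. The groups were apart, with Arid3b-null replicate 1 the closest to wild type, and the change of 0.49 ± 0.15 (SE) did not pass (limma adjusted p = 0.0584). Without that array it was 0.64 (adjusted p = 0.0260).

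Itga5 encodes alpha5, which with beta1 assembles fibronectin fibrils. It read -0.94, -0.59 and -1.03 in wild type and -0.55, -0.42 and -0.54 in Arid3b-null. The Arid3b-null arrays lay close together, just above the highest wild-type array. The change of 0.35 ± 0.14 (SE) did not pass (limma adjusted p = 0.117), and its 95% interval runs from 0.01 to 0.69. It passed without wild type replicate 2 (adjusted p = 0.0463).

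Itgav encodes alphav, the partner chain of both beta3 and beta5. Its wild-type arrays read -2.31, -2.16 and -2.07 and the Arid3b-null arrays -2.26, -2.24 and -2.53. The groups overlapped, and this was the only member whose change lay below 0, at -0.17 ± 0.13 (SE; limma adjusted p = 0.370; 95% interval -0.47 to 0.14). A second Itgav probe gave 0.03 (95% interval -0.44 to 0.50; limma adjusted p = 0.919). The interval of neither probe reached the Itga8 or Itga3 estimate. That Itgav differs from other members was not tested.

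Of the receptors for nephronectin and tenascin, both rose. Itga8 encodes alpha8, a chain of mesenchymal cells that is needed for the ureteric bud to enter the kidney mesenchyme. It read -1.52, -1.39 and -1.54 in wild type and -0.65, -0.27 and -0.44 in Arid3b-null. The gap between the groups was several times the range within wild type. The change was 1.03 ± 0.13 (SE; limma adjusted p = 0.00305; 95% interval 0.72 to 1.34), with 0.87, 1.11 and 1.10 on slides 1 to 3. Over the 13 other ways of processing it ranged from 0.90 to 1.13, with adjusted p between 0.00263 and 0.0197.

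Itga9 encodes alpha9. Its wild-type arrays read 2.53, 2.53 and 2.60 and the Arid3b-null arrays 2.91, 3.06 and 2.90. Both groups were tight and apart. The change of 0.40 ± 0.10 (SE; limma adjusted p = 0.0287) is small in size, and it passed in 4 of the 13 other ways of processing.

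For the collagen receptor, Itga1 read -3.62, -3.58 and -3.18 in wild type and -3.22, -2.84 and -2.91 in Arid3b-null. Wild type replicate 3 fell within the Arid3b-null range. The change of 0.47 ± 0.17 (SE) did not pass (limma adjusted p = 0.0852), except without wild type replicate 3 (adjusted p = 0.0444). A second, dimmer Itga1 probe was well above background on 1 wild-type and 2 Arid3b-null arrays and was not tested for a call among the genes.

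Itgb1, the chain that pairs with alpha1, alpha3, alpha5, alpha6, alpha8, alpha9 and alphav, read 0.83, 0.94 and 0.88 in wild type and 1.24, 1.44 and 1.18 in Arid3b-null. Each Arid3b-null array was above each wild-type array, with a change of 0.40 ± 0.11 (SE; limma adjusted p = 0.0399; 95% interval 0.14 to 0.67). Its other probe changed by 0.35 ± 0.19 (SE) and did not pass (limma adjusted p = 0.211), with -0.12 on slide 3.

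**Figure D2:**
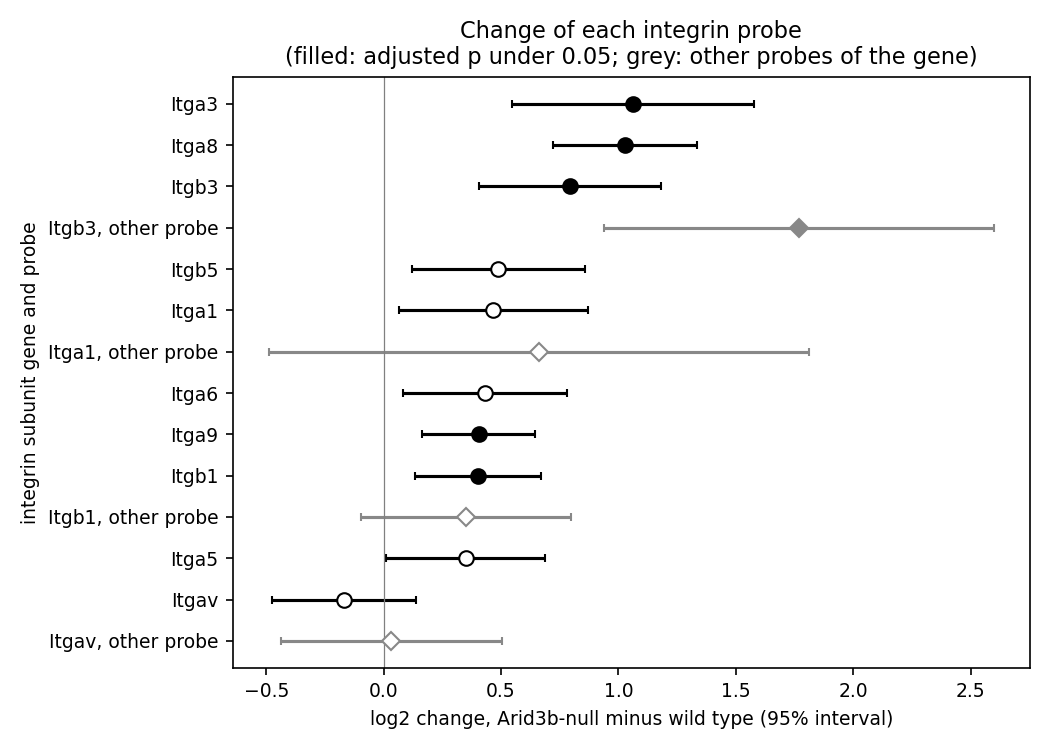
Log2 change, Arid3b-null minus wild type, with its 95% limma interval for the brightest tested probe of each integrin gene (black) and for other probes of the same gene (grey). Filled symbols have an adjusted p under 0.05. The black Itgb3 interval lies to the right of 0, and both Itgav intervals span 0. The grey Itgb3 probe was well above background on no wild-type array, so its plotted change is not a measured fold.

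Ordered by change, the members ran Itga3, Itga8, Itgb3, Itgb5, Itga1, Itga6, Itga9, Itgb1, Itga5 and Itgav. The 95% intervals of Itga3, Itga8 and Itgb3 overlap each other, as do those of the 6 genes from Itgb5 to Itga5. No 2 neighbours in that order have intervals that are apart.

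Among integrin subunits outside these 10, the changes went both ways. Of 16 others listed, 10 were tested, 3 rose and 1 fell (median change 0.02). Itga2b, the alphaIIb chain that pairs with beta3 on platelets, read -4.31, -4.47 and -4.83 in wild type and -3.27, -2.65 and -2.80 in Arid3b-null. All Arid3b-null arrays were higher, by 1.63 ± 0.21 (log2, SE; limma adjusted p = 0.00316), or 3.09-fold, and 1.77-fold under normexp. Itgb8, a partner of alphav, fell by 2.19 on the log2 scale (limma adjusted p = 0.00157), from -3.82, -3.63 and -3.18 in wild type to -6.10, -5.51 and -5.61. That is 4.57-fold lower, or 1.60-fold under normexp, and the probe was well above background on 2 of 3 Arid3b-null arrays. Itgb7, a leukocyte beta chain, rose 1.53-fold and Itga11, a collagen receptor chain of mesenchyme, 1.43-fold. Itgb7 did not pass once replicate 1 or 3 of either group was left out, nor Itga11 once any array other than Arid3b-null replicate 1 was. The number that rose was 1 in the fits that left out wild type replicate 1, wild type replicate 3 or Arid3b-null replicate 3.

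Among the ligands of alpha3 and alpha6, 7 of 11 laminin subunit genes rose and 1 fell, with a median change of 0.64. Lamb3 rose 2.75-fold, Lama5 2.50-fold and Lamb1 2.33-fold, while Lamc3 fell by 0.88 on the log2 scale. Under normexp the rises were 1.88-fold, 2.39-fold and 2.21-fold. Lama5 read 1.98, 2.27 and 2.06 in wild type and 3.34, 3.53 and 3.40 in Arid3b-null, with no overlap. These 4 calls stood in all 13 other ways of processing.

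Of 10 tested ligands with RGD sites or bound by alphav integrins, 4 rose and 1 fell (median 0.51). Edil3, a secreted alphav ligand, rose 2.83-fold, or 1.95-fold under normexp, and Mfge8, its relative, 1.54-fold. Fn1, the fibronectin gene, read 4.18, 4.46 and 4.42 in wild type and 4.81, 5.19 and 4.84 in Arid3b-null, 1.51-fold higher (limma adjusted p = 0.0283). Vtn, which encodes vitronectin, fell by 1.21 on the log2 scale (limma adjusted p = 0.00304). The Fn1 call was lost on leaving out any 1 array other than Arid3b-null replicate 1 (adjusted p up to 0.0964), and the number that rose was 1 without wild type replicate 1 (Mfge8 adjusted p = 0.0579). It was 2 on leaving out replicate 3 of wild type or replicate 2 of Arid3b-null.

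Of 14 tested collagen genes 4 rose and 0 fell (7 and 2 at an unadjusted limma p under 0.05; median 0.41). They were Col4a6 at 2.02-fold, Col6a1 and Col4a2 at 1.59-fold each and Col4a1 at 1.37-fold. Col4a1, Col4a2 and Col4a6 encode chains of basement membrane collagen IV, which alpha1 binds. Col4a6 kept its call in all 13 other ways of processing, but its size depended on the probe. The log2 change was 1.01 for the brightest probe and 0.48 for the mean of its probes (limma adjusted p = 0.0219). The number that rose was 1 on leaving out replicate 1 of wild type or replicate 3 of Arid3b-null. It was 2 on leaving out replicate 3 of wild type or replicate 2 of Arid3b-null. Col4a1 did not pass once slide was a block (adjusted p = 0.0773). With quantile normalization, with median scaling and without Arid3b-null replicate 1, 1 collagen gene fell.

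Of 7 tested ligands of alpha8 and alpha9 and their Fraser complex partners, 1 rose and 0 fell (3 and 0 at an unadjusted limma p under 0.05; median 0.40). Npnt, which encodes nephronectin, read -3.15, -2.95 and -2.96 in wild type and -2.46, -2.37 and -2.48 in Arid3b-null. The groups did not overlap, and Npnt was 1.49-fold higher (limma adjusted p = 0.0108). Under normexp it did not pass (adjusted p = 0.0656).

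Inside the cell, 10 of 31 genes for proteins that bind integrin tails or link them to actin rose and 2 fell (median 0.28). Among the 10 is a gene whose probe was well above background on only 2 wild-type arrays. It passed the dim filter through Arid3b-null alone. Pxn, the paxillin gene, rose 1.84-fold and Kank2, whose protein binds talin, 1.60-fold. Cib1, whose protein binds the alphaIIb tail, fell by 0.97 on the log2 scale (limma adjusted p = 0.00266). These 3 calls stood in all 13 other ways of processing, but the number that rose was 4 without wild type replicate 1, 5 without replicate 3 of either group and 6 without replicate 2 of Arid3b-null. The number that fell was 2 only under normexp, quantile normalization, the mean of probes or without wild type replicate 3. It was 1 in all other ways of processing, among them the slide block. Of 5 tetraspanins, membrane proteins that associate with integrins, 3 rose and 0 fell (4 and 0 at an unadjusted limma p under 0.05). Cd82 rose 1.93-fold, Cd9 1.39-fold and Cd81 1.33-fold. Cd82 alone passed when any array other than Arid3b-null replicate 3 was left out, and Cd9 did not pass once slide was a block (adjusted p = 0.0580).

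**Figure D3:**
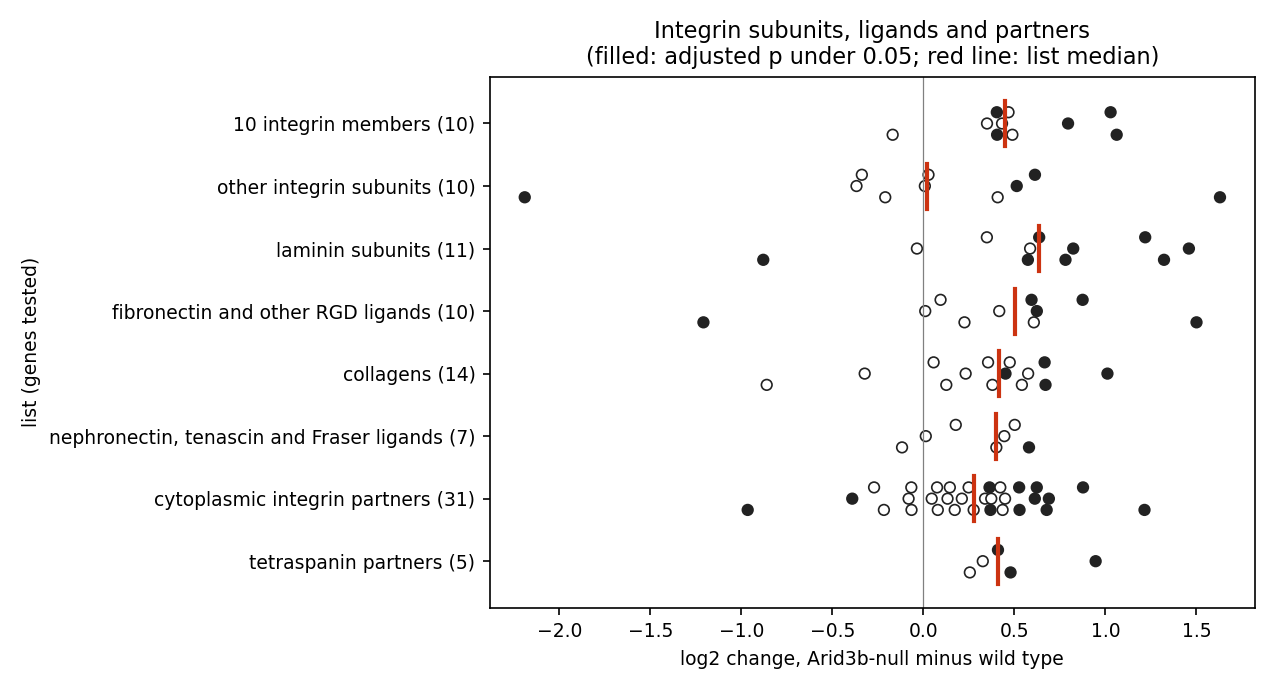
Log2 change, Arid3b-null minus wild type, of each tested gene in the integrin members, other integrin subunits, ligand lists and partner lists. Filled points have an adjusted p under 0.05 and red lines are list medians, which run from 0.02 for the other integrin subunits to 0.64 for laminin subunits.

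A trunk holds many cell types, and fewer cells of a type and less RNA per cell cannot be told apart in such pools. All 14 mesenchyme markers were well above background in both groups. Of these 0 rose and 1 fell (1 and 2 at an unadjusted limma p under 0.05), with a median of 0.05 and a summed signal of 57.7 to 59.3 times the 75th percentile in wild type and 52.1 to 56.2 in Arid3b-null. The gene that fell was Meox2, a somite homeobox gene, by 0.55 on the log2 scale. Leaving out wild type replicate 1 or 2 ended that call, as did leaving out replicate 2 or 3 of Arid3b-null.

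Surface epithelium markers mostly rose. Of 11 markers 7 rose and 0 fell (8 and 0 at an unadjusted limma p under 0.05; median 0.86), and their summed signal was 29.0 to 42.8 in wild type and 62.8 to 73.2 in Arid3b-null. Krt19, a keratin, rose 4.96-fold and Tfap2a, an ectodermal transcription factor, 2.26-fold. The part of epithelium in the Itga3 change was not tested.

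Platelet and megakaryocyte markers mostly rose. Of 7 markers 5 rose and 0 fell (also at an unadjusted limma p under 0.05), with a median of 1.08 and a summed signal of 1.93 to 2.77 in wild type and 5.01 to 6.38 in Arid3b-null. Pf4, a platelet chemokine, rose 2.64-fold and Treml1, a platelet surface receptor, 2.13-fold. The count was 3 under normexp, and with the slide as a block 1 marker fell. All 7 markers were well above background on every Arid3b-null array, and 6 on every wild-type array. The part of these cells in the Itgb3 change was not tested.

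Nephric and intermediate mesoderm markers mostly rose. Of 7 markers 4 rose and 0 fell (5 and 0 at an unadjusted limma p under 0.05; median 0.53), with a summed signal of 2.49 to 2.65 in wild type and 3.59 to 4.33 in Arid3b-null. Ret rose 1.76-fold and Osr1 1.43-fold. The count was 2 without wild type replicate 1. Their part in the Itga8 change was not tested.

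In the other direction, all 7 early neuron markers fell (median -2.72), from a summed signal of 9.49 to 11.6 to one of 1.72 to 2.04. Ina, a neuronal intermediate filament gene, fell by 2.78 on the log2 scale and Nefl by 2.04. Of 7 neural tube progenitor markers 4 fell and 0 rose, the same counts as at an unadjusted limma p under 0.05, with Fabp7 and Nes down by 1.50 and 0.99 on the log2 scale. Erythroid markers fell in 2 of 8 cases, Klf1 and Gata1, and 5 of 8 with quantile normalization. Their summed signal was 573 to 757 in wild type and 457 to 545 in Arid3b-null. The part of these losses in any integrin change was not tested.

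Of 8 endothelial markers 1 rose, Tie1 at 1.52-fold, a call lost once slide was a block (adjusted p = 0.0508) and on leaving out replicate 1 or 3 of wild type, or 2 or 3 of Arid3b-null. Neural crest markers rose in 3 of 5 cases, with Foxd3 at 2.10-fold and Erbb3 at 2.29-fold (1.33-fold under normexp, where it did not pass at an adjusted p of 0.0579 and the count was 2). Erbb3 was well above background on 2 wild-type arrays, so it passed the dim filter through Arid3b-null alone. Skeletal muscle precursor markers gave 1 rise, Met at 1.43-fold (adjusted p = 0.0543 without wild type replicate 1), and 1 fall, Myog by 0.95 on the log2 scale. Of 4 tested macrophage markers 2 fell, Cx3cr1 and Tyrobp, with 1 under normexp and 4 without Arid3b-null replicate 1. Cx3cr1 was well above background on 1 Arid3b-null array and Tyrobp on 2, so both passed the dim filter through wild type alone. Under normexp they were 1.47-fold and 1.31-fold lower. Of 6 cardiac muscle markers 0 were called (0 at an unadjusted limma p under 0.05 as well), with Nkx2-5 at 0.27 and Myl4 at -0.54.

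**Figure D4:**
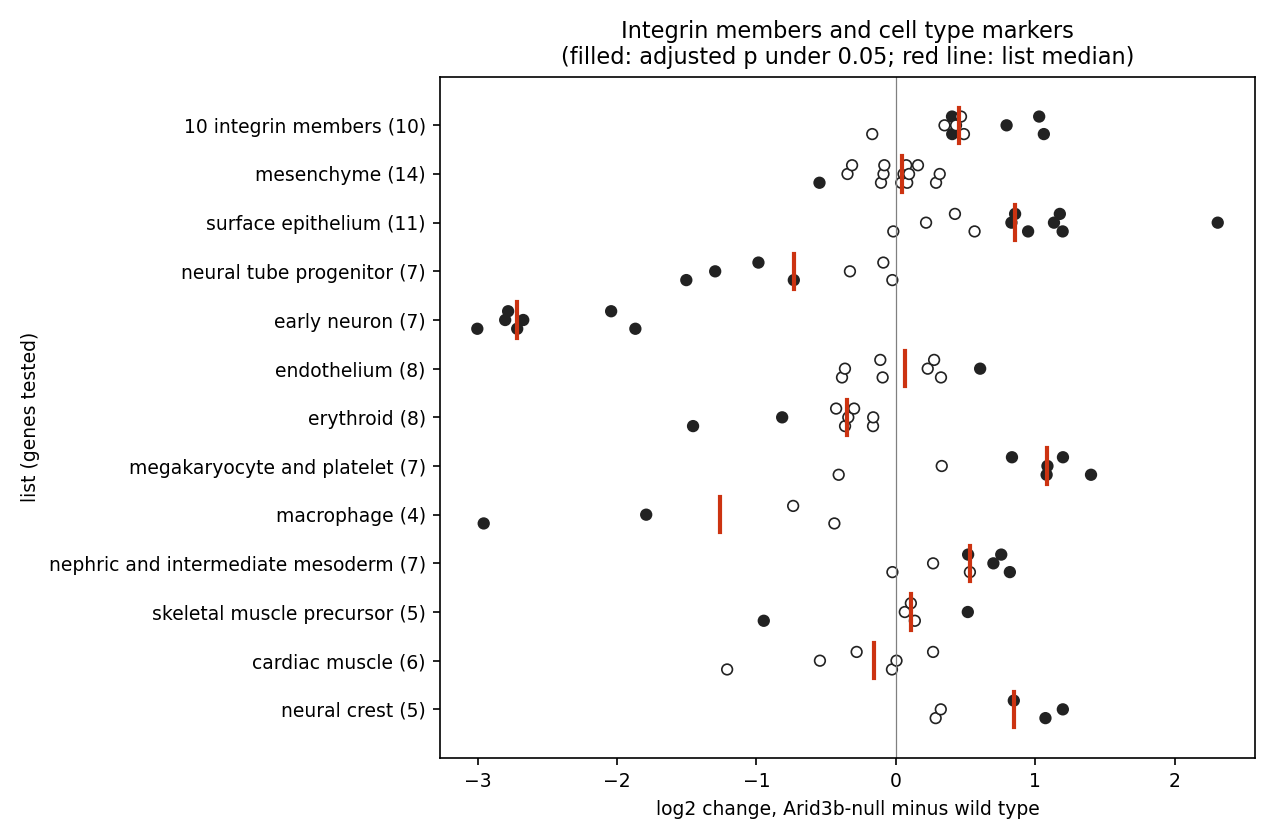
Log2 change, Arid3b-null minus wild type, of the 10 integrin genes and of cell type markers, 1 point per gene, filled where the adjusted p is under 0.05, with red list medians. Mesenchyme markers centre at 0.05, surface epithelium at 0.86, platelet markers at 1.08 and early neurons at -2.72.

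For the 3 members with the smallest adjusted p, the genes with the most similar values over the 6 arrays were looked up among 14190 genes with a symbol. The similarity is Pearson's r, which over 6 arrays in 2 groups is high for any gene with a steady difference, so it is a description only. Itga8 was closest to BC052040, Gtf2ird1 and Pfkfb1 (r = 0.999, 0.999 and 0.998), and 1081 genes reached r above 0.95 with it. Itga3 was closest to Krt7, a keratin of simple epithelia, Trerf1 and Xpnpep2 (r = 0.998, 0.998 and 0.997), with 537 genes above 0.95. Itgb3 was closest to Itm2b, Gp1ba, a subunit of the platelet receptor for von Willebrand factor, and Dtna (r = 0.996, 0.994 and 0.992), with 184 above 0.95. Itm2b changed by 0.14 and Gtf2ird1 by 0.26, and neither passed (limma adjusted p = 0.314 and 0.0865). Dtna was well above background on 1 wild-type array, so it passed the dim filter through Arid3b-null alone. It did not pass the test under normexp (limma adjusted p = 0.297). Gp1ba is also on the platelet list and rose 2.30-fold, or 1.41-fold under normexp, where it did not pass (adjusted p = 0.0605).

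**Figure D5:**
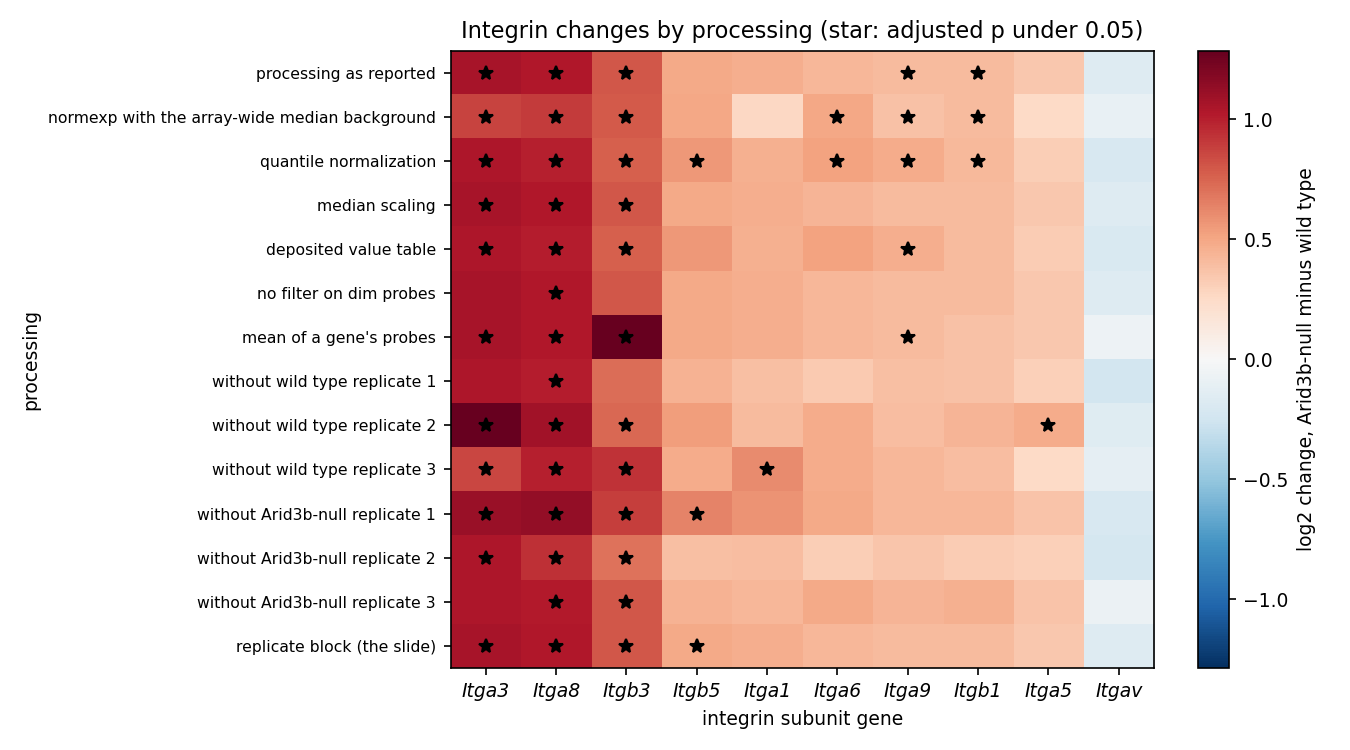
Log2 change of each integrin gene (columns) under the processing as reported and 13 other ways of processing (lines of the grid), coloured from -1.29 (blue) to 1.29 (red), with a star where the adjusted p is under 0.05. Itga8 has a star on every line, and Itgav is blue on every line with none.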

How the data were processed

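Per the labels' protocols, RNA of each pool was amplified, labelled with Cy3 and hybridised to Agilent arrays in one colour. Signals were extracted with Feature Extraction 10.7.3.1, per the file headers. The deposited intensity values are processed signals, from which the scanner software had subtracted background. The deposited value table holds log2 values with near-equal quartiles in each column (medians 6.77), and the sources used here do not say how they were normalized.

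Spots marked as outliers were left out and spots of a probe averaged. RefSeq accessions named 26424 of 39429 probes (symbols of GRCm38.p6). Probes well above background on all arrays of a group were tested, 1 per gene, the brightest. The test was limma 3.58.1 in R 4.3.3, two-sided. It was checked on simulated data with independent arrays, which held no slide effect and so cannot vouch for the fit without the block. Same-numbered arrays share a slide, and their deviations from group means correlated at 0.16, 0.39 and 0.28. The numbers therefore pair the samples, but the reported values come from the fit without the block, and the fit with the slide as a block is an alternative.

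Members and lists were chosen with earlier results of these data known. Named were all members, up to 4 called genes of each ligand or partner list (1 such gene is not reported here), up to 2 of each marker list (or the 2 with the smallest adjusted p where none was called), Arid3b, and the closest patterns. Alternatives were normexp, quantile and median scaling, the deposited table, no dim filter, the mean of probes, other probes, each array left out and the slide block.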

Additional observations from a re-analysis of the deposited data

How the results depend on the processing

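Without a filter on dim probes 2286 genes were called (1288 higher, 998 lower) and 1 integrin member, Itga8; the cause was not tested. With median scaling 3 members were called, all higher. Leaving out 1 array at a time gave 2865 to 3935 called genes, 1661 to 2047 higher and 1204 to 2037 lower, and 1 to 4 members, all higher. Other alternatives gave 4 to 7 members, and 9 of the 10 members lay above 0 in every alternative. With the replicate block, which is also the slide, 4776 genes were called and 4 members, Itga3, Itga8, Itgb3 and Itgb5. The second Itgav probe turned its change to 0.033. Myl4 ran from -0.894 to 0.090 when 1 array was left out, turning above 0 without Arid3b-null replicate 1. Of the member changes recomputed, 100 kept direction and side of the threshold, 26 lost a call, 7 gained one and 1 turned, the Itgav value above. Without the dim filter, laminins that rose numbered 4, collagens 1, RGD ligands 1, cytoplasmic partners 4, tetraspanins 1 and nephric markers 1. With median scaling 6 cytoplasmic partners and 1 tetraspanin rose, and 5 cytoplasmic partners rose with the deposited log2 values. Other causes of these shifts were not tested. With 3 arrays a group, Itga9 at 0.40 passed and Itga6 at 0.43 did not.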
